A study of Mus musculus with 6 samples.

Results

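The genes described here encode actins, the proteins that bundle and brace actin filaments, non-muscle and smooth muscle myosin with its activators, focal adhesion and caveola proteins, and the transcription factor SRF. They were taken from a list of 49 symbols, and each was looked up by its symbol in the platform's gene table. Of these, 44 had a row among the 16331 rows of the value table. Actg1, Tpm3, Myl6, Rock2 and Cfl1 had no row under their symbols and were not analysed here.

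Expression was measured on 6 arrays of primary hepatocytes from male C57Bl6 mice. After attachment in medium with fetal calf serum, the cells were kept in serum-free medium with insulin, glucagon and hydrocortisone, between a lower and an upper collagen gel. The 3 CsA cultures were exposed for 48 hours to 10 µM cyclosporin A, a calcineurin inhibitor, and the 3 DMSO cultures to 0.5% DMSO, the vehicle. Each of the 3 experiments used a different animal. The sources used here give neither the animals' ages nor whether DMSO was also present in the CsA cultures.

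Actin filaments grow and shrink by adding and losing monomers, are crosslinked by alpha-actinins and filamin, and slide when myosin II is switched on by phosphorylation of its regulatory light chain. Many of these genes are known targets of SRF. Its MRTF cofactors are held back by free actin monomers, and SRF binds a sequence called the CArG box. In hepatocytes an actin and myosin belt surrounds the bile canaliculus, and ezrin, radixin and moesin link filaments to the membrane. The smooth muscle forms of actin, calponin and transgelin are known mainly from vascular smooth muscle and from activated stellate cells.

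Levels are the authors' log2 RMA values, so 1 unit is a doubling, and a level cannot be compared between genes. Albumin (Alb), a hepatocyte protein, lay near the top of the scale at 15.17, 15.24 and 15.16 in CsA and 15.30, 15.29 and 15.28 in DMSO. The median level of an array was 6.70 to 6.78, and arrays of a group correlated at 0.990 to 0.997, against 0.969 to 0.981 for arrays of different groups.

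Many contractile and actin-binding genes were lower after CsA. The genes were chosen with earlier results of these data known, which can raise their shares above those of all rows. Of the 44 measured genes, 22 were lower and 2 higher (limma, Benjamini-Hochberg adjusted p under 0.05 over all rows), and 20 did not pass. Over all rows, 9.05% were called lower and 9.55% higher. With the replicate number as a block, a pairing that the labels do not state, 27 were lower, against 12.9% of all rows, and 2 higher, against 15.8%. The median difference of the 44 genes, CsA minus DMSO, was -0.55, against 0.04 over all rows, and their median absolute difference was 0.57, against 0.18. A difference of at least 1.5-fold was found for 17 of the 22 lower genes and 1 of the 2 higher ones, where 6.83% and 5.19% of all rows passed both limits. The groups did not overlap for 25 genes with CsA below DMSO, against 15.3% of all rows, and for 3 with CsA above, against 19.8%. In the 3 pairs of arrays with the same replicate number, 31 genes (70.5%) were lower with CsA in every pair, against 24.0% of all rows. The mean level of the 44 genes was 8.52 to 8.77 on the CsA arrays and 9.23 to 9.47 on the DMSO arrays. These arrays measured whole cultures, so fewer cells of a type and less RNA per cell cannot be told apart.

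The 22 lower genes covered most roles but not evenly. All 3 crosslinker genes measured, 4 of 5 calponin and transgelin genes, 4 of 5 myosin and kinase genes and 2 of 3 ezrin, radixin and moesin genes fell. Of the other roles, 2 of 4 actins, 2 of 4 tropomyosin and caldesmon genes, 3 of 5 LIM domain and anchoring genes, 1 of 7 focal adhesion genes and 1 of 4 caveola genes fell. The mean levels of the lower genes lay between the percentiles 32.3 and 97.7 of all rows, so dim and bright rows both took part. The 2 higher genes were Pdlim1 and Cfl2.

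**Figure D1:**
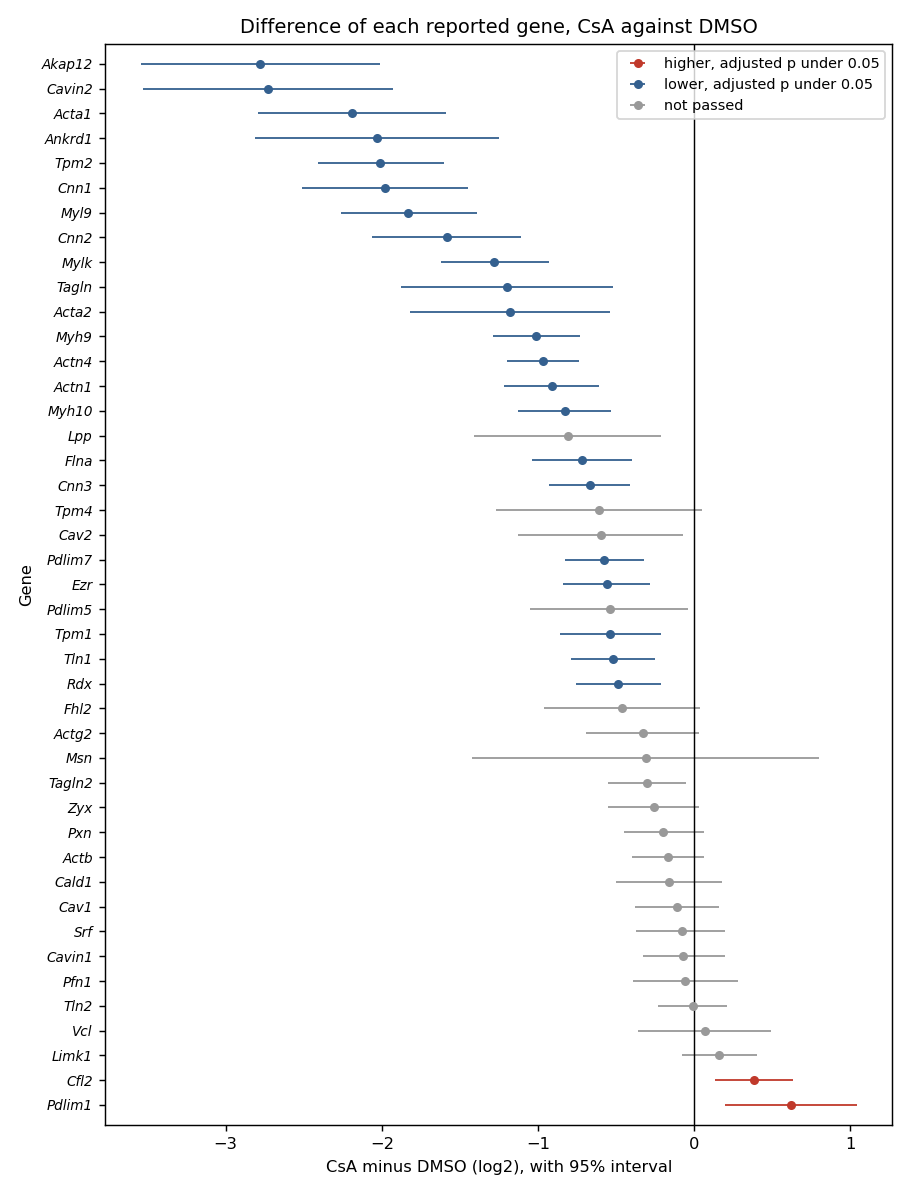
The difference of each gene reported here, CsA minus DMSO, on the log2 scale (horizontal axis), with genes down the page from the most negative. Points are limma estimates with 95% intervals, blue for genes called lower, red for genes called higher and grey for the rest. Akap12 at -2.78 and Cavin2 at -2.73 lie farthest to the left and Pdlim1 at 0.62 farthest to the right.

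Srf itself, of which many of these genes are known targets, was 7.97, 7.85 and 7.69 in CsA and 7.76, 7.90 and 8.09 in DMSO. The groups overlapped, and the difference was -0.08 ± 0.13 (moderated SE, used for every difference here) with an adjusted p of 0.737. Its 95% interval, -0.37 to 0.20, leaves room for a modest change in either direction.

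Among the actins, the skeletal muscle form Acta1 fell the most. Acta1 was 8.29, 8.56 and 7.79 in CsA and 10.57, 10.79 and 9.85 in DMSO, so every CsA array lay more than a log2 unit below every DMSO array. The difference of -2.19 ± 0.26 is 4.57-fold (adjusted p = 0.000847). Acta2, the smooth muscle alpha-actin, was 5.50, 5.25 and 5.53 in CsA and 7.22, 6.70 and 5.91 in DMSO. The DMSO arrays were spread over more than a log2 unit while the CsA arrays lay close together. Acta2 fell by 1.18 on the log2 scale, 2.27-fold (adjusted p = 0.0203), and the call was lost without CsA replicate 1 (adjusted p = 0.0524), CsA replicate 2 (0.0772) or DMSO replicate 2 (0.0733).

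Actb, the cytoplasmic beta-actin of all cells, was 14.48, 14.54 and 14.38 in CsA and 14.66, 14.65 and 14.59 in DMSO. The groups did not overlap, but the difference was only -0.17 (95% interval -0.40 to 0.06, adjusted p = 0.312). Actg2, the smooth muscle gamma-actin, was 4.31 ± 0.31 in CsA and 4.64 ± 0.11 in DMSO (SD, n = 3 each) and did not pass (adjusted p = 0.203). Actin proteins are near-identical and their genes are alike in their coding parts, so RNA of 1 form may bind probes of another, which was not tested.

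The CArG box was searched for in 250 bases before to 50 bases after each gene start, on both strands, in RefSeq windows of build GRCm38.p6. Of the 44 genes, 37 had a window, and 6 of these 37 held the box in at least 1 window, against 1.81% of 27018 genes with a window. The 6 were Acta1, Cnn2 and Myl9, which fell, and Srf, Vcl and Fhl2, which did not pass. By call, 3 of 20 lower genes with a window and 3 of 15 genes that did not pass held it. The motif CATTCC, which TEAD factors are known to bind, was in 14 of 37 against 16.58% of genes, CCAAT in 19 against 41.07%, and TATAAA in 7 against 15.67%. By call, CATTCC was in 8 of 20 lower genes and in 6 of 15 that did not pass. CCAAT was in 10 and 8 of these, and TATAAA in 2 and 5. No CArG box of these genes overlapped another of these motifs. Many of these genes are known SRF targets, which can raise their share with a CArG box above that of all genes. A match describes letters only, and a site outside the window or departing from the pattern searched was not counted. The stretches around each box are given below because genes with and without a change in level carry it, with the box in capitals.
Acta1, chr8:123894809-123894878, minus strand: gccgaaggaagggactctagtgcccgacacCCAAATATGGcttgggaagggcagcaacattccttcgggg
Cnn2, chr10:79988514-79988583, plus strand: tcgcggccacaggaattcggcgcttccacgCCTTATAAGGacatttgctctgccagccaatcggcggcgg
Myl9, chr2:156775273-156775342, plus strand: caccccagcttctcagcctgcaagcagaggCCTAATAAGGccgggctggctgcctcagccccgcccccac
Srf, chr17:46556185-46556274, minus strand: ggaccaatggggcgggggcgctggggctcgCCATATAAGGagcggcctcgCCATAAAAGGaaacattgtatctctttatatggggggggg
Vcl, chr14:20929148-20929210, plus strand: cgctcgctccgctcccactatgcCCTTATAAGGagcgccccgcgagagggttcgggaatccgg
Fhl2, chr1:43196818-43196887, minus strand: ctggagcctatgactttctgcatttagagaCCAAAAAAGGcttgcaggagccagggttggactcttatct
Fhl2, chr1:43163953-43164022, minus strand: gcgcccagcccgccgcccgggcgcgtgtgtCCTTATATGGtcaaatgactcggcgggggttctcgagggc

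Taking the first base of the transcript as base 0, the box started at base -73 for Acta1, -56 for Cnn2 and -161 for Myl9. In Srf 2 boxes started at -82 and -62, and in Vcl 1 box at -227. Fhl2 had a box in each of 2 alternative windows, at -96 and at -31. Cnn2, which fell 2.99-fold, and Vcl, with a difference of 0.07, held the same 10 letters. Actb, Actg2, Tagln, Tln2, Pxn and Akap12 were among the genes with no window.

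The calponins fell together. Cnn1, the smooth muscle calponin, was 4.56, 4.90 and 4.31 in CsA and 6.85, 6.81 and 6.04 in DMSO, a difference of -1.98 ± 0.23 (adjusted p = 0.000790). Cnn2, found in many non-muscle cells, was 7.75, 7.86 and 7.69 in CsA and 9.80, 9.38 and 8.86 in DMSO, a difference of -1.58 ± 0.21 (adjusted p = 0.00135). In both genes every CsA array lay about a log2 unit or more below every DMSO array. Cnn3, the acidic calponin, fell 1.59-fold, to 11.01 ± 0.04 in CsA against 11.68 ± 0.16 in DMSO (SD, n = 3 each, limma adjusted p = 0.00447). The 95% interval of Cnn3, -0.93 to -0.41, did not overlap that of Cnn2, -2.06 to -1.11, though the difference between the genes was not tested.

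Tagln, which encodes the smooth muscle actin-binding protein transgelin, was 6.33, 6.14 and 6.00 in CsA and 8.11, 7.22 and 6.73 in DMSO. The groups did not overlap, and DMSO replicate 1 stood highest. Tagln fell 2.29-fold (-1.20 ± 0.30, adjusted p = 0.0246). Without DMSO replicate 1 the difference was -0.82 and still passed (adjusted p = 0.0216). Without CsA replicate 1, 2 or 3 or DMSO replicate 2 Tagln did not pass (adjusted p = 0.0514, 0.0761, 0.0579 and 0.0630). Tagln2, a widely expressed relative, was 11.82 ± 0.14 in CsA and 12.12 ± 0.03 in DMSO (SD, n = 3 each). It did not pass (limma adjusted p = 0.0980), but passed with the replicate number as a block (0.0498) and without CsA replicate 3 (0.0468).

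Tropomyosins lie along the filament and control access of myosin. Tpm2 was 7.56, 8.05 and 7.87 in CsA and 9.73, 10.16 and 9.60 in DMSO. The gap between the groups was wider than the spread within either, and the fall of 4.01-fold had the smallest adjusted p of the 44 genes (0.000198). Tpm1 fell less, to 11.66 ± 0.26 in CsA against 12.20 ± 0.08 in DMSO (SD, n = 3 each), 1.45-fold with a limma adjusted p of 0.0310. Its call was lost without CsA replicate 1 (adjusted p = 0.0621), DMSO replicate 1 (0.0808) or DMSO replicate 2 (0.113). Tpm4 was 10.87, 11.06 and 9.91 in CsA and 11.30, 11.50 and 10.88 in DMSO. DMSO replicate 3 lay below CsA replicate 2, so its groups overlapped. Tpm4 passed with the replicate block only among fits of all 6 arrays (-0.61 ± 0.13, adjusted p = 0.0115, against 0.191 without the block). Cald1, which encodes caldesmon, a regulator of actin and myosin contact, differed by -0.16 (95% interval -0.50 to 0.18, adjusted p = 0.539).

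**Figure D2:**
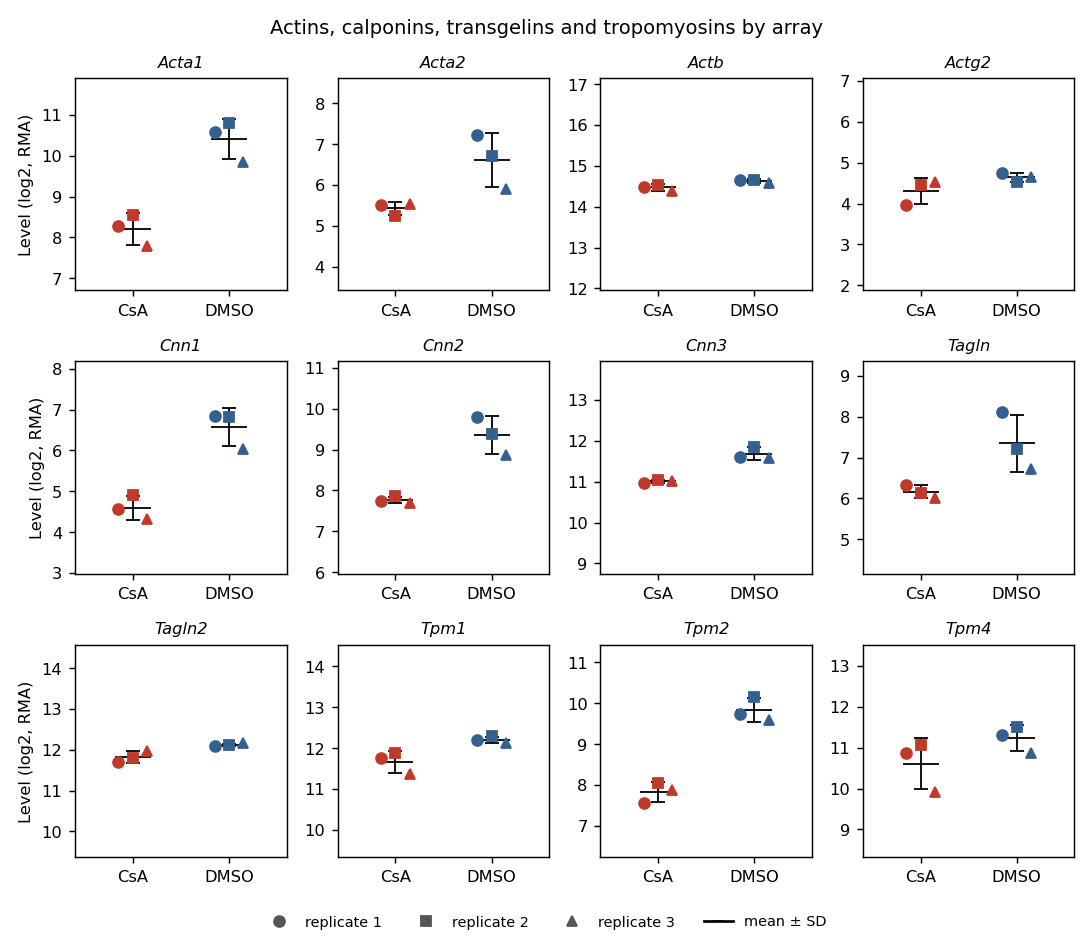
Levels of the actin, calponin, transgelin and tropomyosin genes on each array (log2 RMA, vertical axis), CsA in red and DMSO in blue, with marker shape for the replicate number and bars for mean ± SD (n = 3). Each panel spans the same number of log2 units. Acta1, Cnn1, Cnn2 and Tpm2 show a wide gap between the groups, while Actb and Tagln2 lie nearly level.

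Genes of the myosin motor fell, from its switch to its heavy chains. Myl9, a regulatory light chain, was 4.40, 4.49 and 4.49 in CsA and 6.24, 6.73 and 5.89 in DMSO, 3.54-fold lower (adjusted p = 0.000447). Mylk, the kinase that phosphorylates that light chain, was 5.72, 5.53 and 5.49 in CsA and 6.97, 7.05 and 6.54 in DMSO, 2.42-fold lower (adjusted p = 0.000814). The non-muscle heavy chain gene Myh9 was 10.87, 10.80 and 10.66 in CsA and 11.97, 11.75 and 11.63 in DMSO. It fell 2.01-fold (adjusted p = 0.000921), and its relative Myh10 fell 1.78-fold (-0.83 ± 0.13, adjusted p = 0.00315). In all 4 genes the groups did not overlap.

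The crosslinkers fell by similar amounts. Actn4, the alpha-actinin of most non-muscle cells, was 11.04, 11.07 and 10.94 in CsA and 12.03, 12.01 and 11.92 in DMSO. Its replicates lay within a small part of a log2 unit, and it fell 1.96-fold (-0.97 ± 0.10, adjusted p = 0.000427). Actn1, its relative at stress fibres and adhesions, was 1.89-fold lower (-0.91 ± 0.13, adjusted p = 0.00211). Flna, filamin A, which joins filaments into networks, was 1.65-fold lower (-0.72 ± 0.14, adjusted p = 0.00824). The 95% intervals of the 3 genes overlapped.

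Focal adhesion genes mostly did not pass. Tln1, encoding talin, which ties integrins to actin, was 8.15, 8.33 and 8.39 in CsA and 8.85, 8.91 and 8.66 in DMSO, 1.43-fold lower (adjusted p = 0.0174). The call for Tln1 was lost without CsA replicate 1 (adjusted p = 0.0666), CsA replicate 2 (0.0578), DMSO replicate 1 (0.0620) or DMSO replicate 2 (0.0765). Vcl, encoding vinculin, which strengthens that link, was 10.64, 10.53 and 10.13 in CsA and 10.66, 10.40 and 10.04 in DMSO, with a difference of 0.07 (95% interval -0.36 to 0.49). Tln2, the other talin, differed by -0.01 (95% interval -0.23 to 0.21). The adaptor paxillin (Pxn) differed by -0.20 and zyxin (Zyx), which gathers at strained filaments, by -0.26, with overlapping groups. Pxn passed with array weights only (-0.30, adjusted p = 0.0324).

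Lpp and Fhl2 were less settled. Lpp, a zyxin relative, was 10.27, 10.04 and 10.01 in CsA and 11.48, 11.02 and 10.26 in DMSO, and DMSO replicate 3 overlapped the CsA arrays. Its difference of -0.81 ± 0.26 did not pass (adjusted p = 0.0659), but passed with the replicate block (0.0130) and without DMSO replicate 3, at -1.14 (0.00355). Fhl2, a LIM protein of adhesions and the nucleus, differed by -0.46 (adjusted p = 0.197) and passed without CsA replicate 2 (-0.70, adjusted p = 0.0459).

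The LIM domain and anchoring genes moved in both directions and held the deepest fall. Akap12, which encodes a membrane scaffold for protein kinases A and C, was 6.36, 6.57 and 6.12 in CsA and 8.66, 8.68 and 10.04 in DMSO. DMSO replicate 3 stood above the other DMSO arrays, and the difference was -2.78 ± 0.34, 6.85-fold (adjusted p = 0.000886). Without DMSO replicate 3 it was -2.32 (adjusted p = 0.000169). By size of fall, Akap12 ranked 48 among the 16331 rows.

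Ankrd1, a stretch-responsive ankyrin repeat protein and a known target of the cofactor YAP, was 8.01, 8.17 and 6.81 in CsA and 9.94, 9.88 and 9.25 in DMSO. In both groups replicate 3 was the lowest, and the fall was 4.08-fold (-2.03 ± 0.34, adjusted p = 0.00423). Pdlim7, a PDZ and LIM protein that binds tropomyosin, fell 1.49-fold (-0.58 ± 0.11, adjusted p = 0.00824). Its relative Pdlim5 was 8.58, 9.07 and 8.11 in CsA and 9.22, 9.24 and 8.93 in DMSO. Pdlim5 did not pass (-0.54, adjusted p = 0.133), but passed with the replicate block (0.0218) and without CsA replicate 2 (-0.79, adjusted p = 0.0321).

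Pdlim1, which binds alpha-actinin, went the other way, at 10.80, 10.88 and 11.08 in CsA and 9.90, 10.37 and 10.63 in DMSO. The groups did not overlap, and Pdlim1 rose 1.54-fold (0.62 ± 0.18, adjusted p = 0.0476), close to the threshold. The call for Pdlim1 was lost without CsA replicate 1 (adjusted p = 0.0802), CsA replicate 2 (0.114), CsA replicate 3 (0.108), DMSO replicate 1 (0.117) or DMSO replicate 2 (0.106).

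The caveola genes differed among themselves. Cavin2, which helps to shape the caveola membrane, was 4.60, 4.84 and 4.52 in CsA and 7.10, 8.34 and 6.72 in DMSO. The groups stood well apart, although the DMSO arrays were widely spread, and the fall was 6.64-fold (-2.73 ± 0.35, adjusted p = 0.00119). Cavin1, the coat protein needed for caveolae, was 7.04, 7.21 and 7.05 in CsA and 7.01, 7.18 and 7.30 in DMSO, a difference of -0.07 (95% interval -0.33 to 0.20). Cav1, the main caveolin, differed by -0.11 (95% interval -0.38 to 0.16). Cav2, its partner, was 7.22, 7.40 and 6.46 in CsA and 7.80, 7.68 and 7.39 in DMSO, and its groups overlapped. Its difference of -0.60 did not pass (adjusted p = 0.116) except with the replicate block (0.0141) and without both arrays numbered 3 (-0.43, adjusted p = 0.0356). The interval of Cavin2, -3.53 to -1.93, lay below those of Cavin1, Cav1 and Cav2, and the differences between these genes were not tested.

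Ezrin (Ezr) and radixin (Rdx) fell by similar amounts. Radixin is the main member of the family in hepatocytes. Ezr was 9.33, 9.46 and 9.56 in CsA and 9.89, 10.20 and 9.95 in DMSO, 1.48-fold lower (adjusted p = 0.0146). Rdx was 11.09, 11.12 and 11.05 in CsA and 11.57, 11.76 and 11.38 in DMSO, 1.40-fold lower (adjusted p = 0.0248). In both genes the groups did not overlap. The call for Ezr was lost without CsA replicate 1 (adjusted p = 0.0582), CsA replicate 2 (0.0550) or DMSO replicate 2 (0.0631), and that for Rdx without CsA replicate 1 (0.0713), CsA replicate 2 (0.0764), DMSO replicate 1 (0.0739) or DMSO replicate 2 (0.0978). Moesin (Msn), known mainly from other liver cells, was 10.27, 10.25 and 8.76 in CsA and 10.95, 10.02 and 9.23 in DMSO. Its arrays differed more within groups than between them (95% interval -1.42 to 0.80).

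Of the genes that turn filaments over, Cfl2 rose. Cfl2, the muscle form of cofilin, which severs filaments, was 11.19, 11.27 and 11.07 in CsA and 10.68, 10.85 and 10.87 in DMSO, 1.30-fold higher (adjusted p = 0.0453). The groups did not overlap, but the call for Cfl2 was lost without CsA replicate 1 (adjusted p = 0.119), CsA replicate 2 (0.168), DMSO replicate 1 (0.160), DMSO replicate 2 (0.106) or DMSO replicate 3 (0.0527). Limk1, the kinase that inactivates cofilin, was 6.49, 6.55 and 6.50 in CsA and 6.40, 6.22 and 6.43 in DMSO, a difference of 0.16 that did not pass (adjusted p = 0.357). Profilin (Pfn1), which feeds monomers to growing ends, differed by -0.06 (95% interval -0.39 to 0.28).

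**Figure D3:**
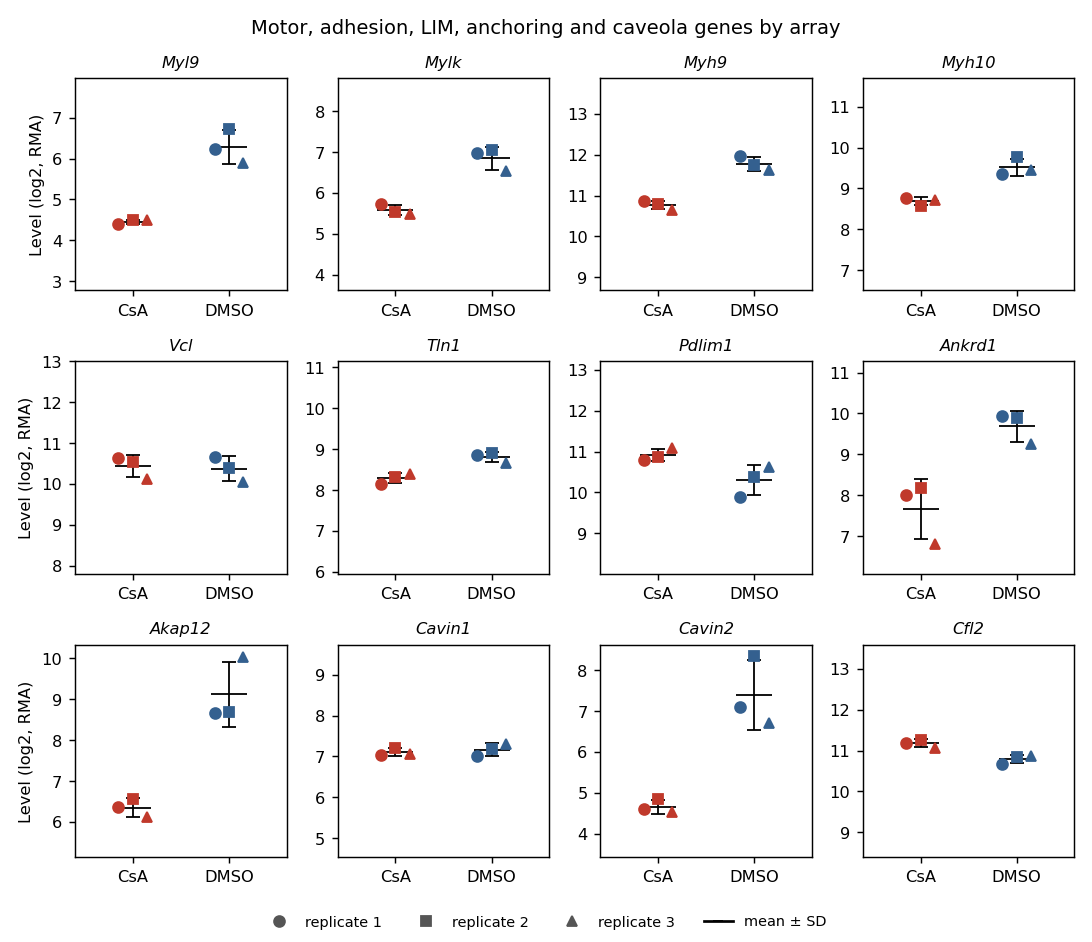
Levels of motor, adhesion, LIM, anchoring, caveola and turnover genes on each array (log2 RMA, vertical axis), CsA in red and DMSO in blue, with marker shape for the replicate number and bars for mean ± SD (n = 3). Each panel spans the same number of log2 units. Myl9, Ankrd1, Akap12 and Cavin2 show wide gaps, Vcl and Cavin1 overlap, and Pdlim1 and Cfl2 lie slightly higher in CsA.

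Other genes of the same pathways were read from further lists that hold none of the 44 genes. These lists were also chosen with earlier results of these data known. Their counts stand beside 9.05% of all rows called lower and 9.55% called higher. Among other myosins and actin crosslinkers 12 of 30 measured genes were lower and 1 higher (2 without DMSO replicate 1). They included the podocyte and stress fibre protein Synpo (-1.83 ± 0.18), the light chain gene Myl12b (-1.44 ± 0.17) and the bundling protein plastin 3 (Pls3, -0.82 ± 0.12), while the transport motor Myo5a rose (0.80 ± 0.12). Among other focal adhesion proteins 8 of 31 were lower and 1 higher (0 without CsA replicate 2 or DMSO replicate 2 and 2 without DMSO replicate 3). Genes of tensin (Tns1, -1.77), palladin (Palld, -1.41), parvin (Parva, -1.12) and the adhesion kinase Ptk2b (-0.74) were among those that fell.

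All rows of the table gave 9.05% lower and 9.55% higher. Of SRF cofactors and further SRF targets 5 of 24 were lower and 0 higher in limma (0 higher and 9 lower at an unadjusted p under 0.05). The lower genes were Ccn2 (-2.24 ± 0.42), Thbs1, thrombospondin (-2.02 ± 0.53), the filamin-binding Fblim1, also in the focal adhesion list (-1.32 ± 0.20), the SRF partner Elk3 (-1.18 ± 0.24) and Ccn1 (-0.47 ± 0.13). With the replicate block 9 were lower, against 12.9% of all rows. Without CsA replicate 1, DMSO replicate 1 or DMSO replicate 2, 3 were lower. Ccn1 and Ccn2 encode secreted matrix proteins. The cofactor genes Mrtfa (-0.11, limma adjusted p = 0.723), Mrtfb (-0.23, 0.191) and Myocd (0.15, 0.610) did not pass.

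In actin nucleation and filament turnover 3 of 42 were higher and 4 lower, shares near those of all rows (9.55% higher and 9.05% lower). Tmsb4x, thymosin beta 4, which binds actin monomers, fell (-1.70), as did Lima1, a filament stabiliser (-0.83). Enah, which elongates filaments (1.05), and the capping protein gene Capg (1.00) rose. With the replicate block 6 were higher and 8 lower, against 15.8% and 12.9% of all rows. The 3 higher became 5 without DMSO replicate 3, and the 4 lower became 2 without CsA replicate 1, CsA replicate 2 or DMSO replicate 2. Of 11 other caveola and raft genes 3 were lower, Ehd2 (-0.59), Flot2 (-0.37) and Pacsin2 (-0.36), and 0 higher in limma (0 at an unadjusted p under 0.05). The 3 became 0 without CsA replicate 1, CsA replicate 2 or any DMSO replicate, and 0 with the arrays centred on their medians.

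Markers of other cell types were read beside these results. For all rows the shares called were 9.05% lower and 9.55% higher. Of 16 stellate cell and fibroblast markers 0 passed in limma (Lhx2 higher and Col3a1 lower at an unadjusted p under 0.05, 1 higher and 2 lower with the replicate block, and 1 lower without DMSO replicate 1). Their mean level was 4.62 to 4.74 on the CsA arrays and 4.68 to 4.98 on the DMSO arrays. The markers with the highest levels were desmin (Des), decorin (Dcn) and Reln. Des was 6.55 ± 0.02 in CsA and 6.72 ± 0.05 in DMSO (SD, n = 3 each). Dcn was 6.20 ± 0.33 in CsA and 6.75 ± 0.54 in DMSO, and Reln 5.26 ± 0.31 and 5.61 ± 0.23. The stellate markers Lrat and Pdgfrb, named after their values were seen, lay near the bottom of the scale in both groups. Lrat was between 3.08 and 3.24 in CsA and between 3.17 and 3.28 in DMSO. Levels cannot be compared between genes, so these values do not tell whether stellate cells were present. Of 9 vascular smooth muscle markers 0 passed in limma (0 at an unadjusted p under 0.05, 0 with the replicate block). This list is not separate from the others. Myh11, Smtn, Lmod1, Synpo2, Myocd and Des are also in the list of SRF cofactors and targets, and Des is also a stellate marker above. Myh11, the smooth muscle heavy chain, was 3.77, 4.00 and 3.98 in CsA and 3.94, 3.79 and 4.07 in DMSO.

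DMSO replicate 1, the array with the highest Acta2 and Tagln, was also the highest array for 5 of the 16 stellate cell and fibroblast markers, 0 of the 9 smooth muscle markers and 9 of the 13 macrophage markers. DMSO replicate 3 was the highest for 6 of the 16 and 6 of the 9. Examples that peaked on DMSO replicate 1, chosen after their values were seen, were Col3a1, Dcn and C1qa. Col3a1, a fibroblast collagen, was 3.49, 3.41 and 3.57 in CsA and 5.46, 3.93 and 4.07 in DMSO. Decorin (Dcn), a matrix protein of fibroblasts, was 6.31, 5.84 and 6.47 in CsA and 7.36, 6.35 and 6.54 in DMSO. The macrophage gene C1qa was 4.76, 4.88 and 5.12 in CsA and 6.02, 4.82 and 4.86 in DMSO. Without that array Acta2 differed by -0.88 (adjusted p = 0.0402) and Tagln by -0.82. The part of these cells in the falls of Acta2 and Tagln was not tested.

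Of the other markers, 2 of 13 endothelial (Egfl7 and Stab2), 1 of 13 macrophage (Vsig4) and 1 of 6 cholangiocyte markers (Sox9) were lower, with 0 higher, against 9.05% lower and 9.55% higher over all rows. Prom1 was higher at an unadjusted p under 0.05, and 1 cholangiocyte marker passed as higher without CsA replicate 3 or DMSO replicate 2. The 2 endothelial calls became 1 without any single array other than DMSO replicate 2, the macrophage call was lost without any array other than DMSO replicate 3, and Sox9 lost its call without CsA replicate 1 or DMSO replicate 1. No mesothelial or lymphocyte marker passed in limma among 6 and 8 (0 and 1 at an unadjusted p under 0.05). Of 12 hepatocyte markers 8 were lower (4 without CsA replicate 2) and 0 higher (0 at an unadjusted p under 0.05), so hepatocyte genes fell in the same cultures.

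**Figure D4:**
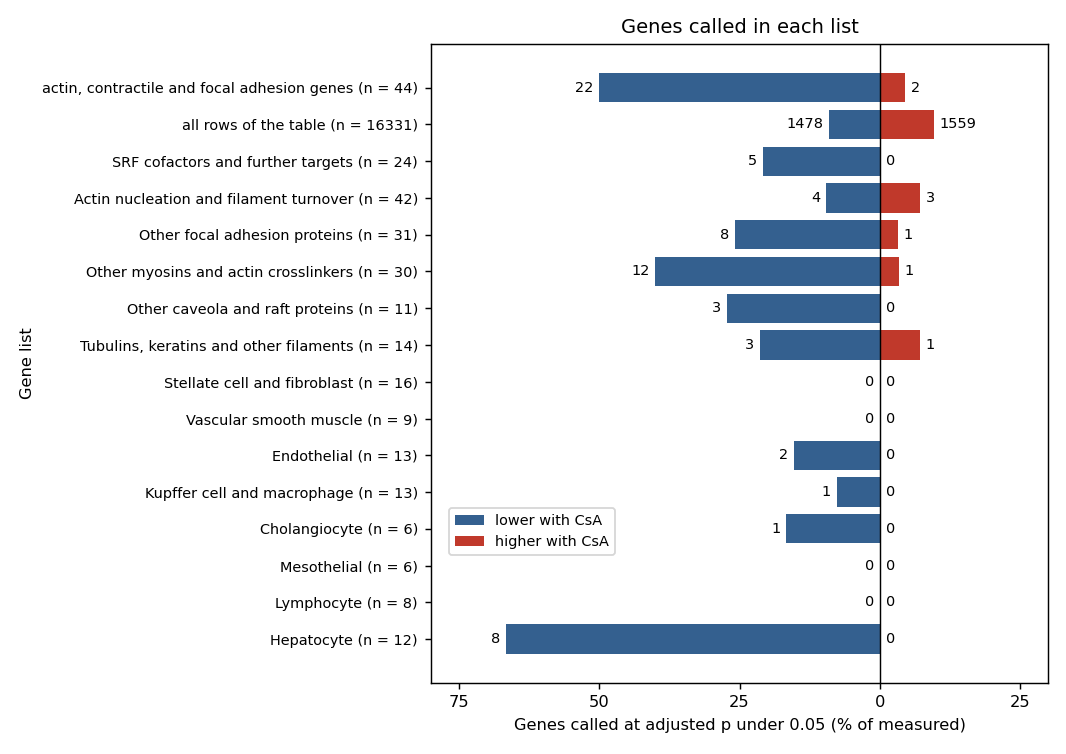
Genes called at a limma adjusted p under 0.05 in each list reported here, as a percentage of its measured genes (horizontal axis), lower with CsA to the left in blue and higher to the right in red, with counts beside the bars and the number measured (n) beside each name. The contractile and adhesion genes (22 lower, 2 higher) lean to the left. The hepatocyte markers (8 lower, 0 higher) do so too, while all rows of the table are split nearly evenly.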

How the data were processed

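Total RNA was hybridised as biotin-labelled cRNA to Affymetrix arrays, 1 sample per array, per the labels' protocols. The deposited values are log2 expression values from RMA, and the submitters' processing notes name R 2.11.0. RMA makes array distributions alike, so a change in the total RNA of a cell would not show. The number of arrays, 3 per group, limits the precision.

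The platform's gene table named 15136 of 16331 rows (92.7%), and for the 3 genes with over 1 row the row with the higher mean was used. CsA was compared with DMSO in a two-sided limma test without covariates (version 3.58.1, R version 4.3.3). P-values were adjusted by the Benjamini-Hochberg method across the whole table, with a threshold of 0.05. The fit was tested on simulated data. With no probe set build named for the values, promoter coordinates are those of the RefSeq table.

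Groups and replicate numbers came from the titles. Deviations of same-numbered arrays from their group means correlated at 0.398, 0.242 and 0.499. On these correlations the numbers were treated as pairs in an alternative with a replicate block. The labels name 3 animals but do not state that same-numbered cultures shared one. The titles carry a different code for each DMSO array and a single code for every CsA array, so they do not pair the groups. For replicate 2 the margin was small, since DMSO replicate 2 correlated at 0.221 with CsA replicate 1.

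The members and lists were chosen with earlier results of these data known. The results of 1 measured member, which stays in the counts, and of 1 pathway list are not reported here. The rule named every member with a row, up to 4 genes of each pathway list by adjusted p, and markers by level. Ccn1, Vim, Col3a1, C1qa, Lrat, Pdgfrb, Myh11, Lhx2, Stab2, Vsig4, Sox9, Mrtfa, Mrtfb, Myocd, Smtn and Synpo2 were named after their values were seen. Alternatives were a trended or a robust prior variance, weights per array, a second quantile normalization, median centring, filters that dropped the dimmest 20% or 50% of rows, averaged rows per gene with unnamed rows dropped, the threshold 0.01, and fits without each array or without both numbered 3.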

Additional observations from a re-analysis of the deposited data

How the results depend on the processing

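Over 17 alternatives, 16 of the 22 lower genes kept their call and their direction in each alternative in which they were tested. The other 6 lower genes (Acta2, Tagln, Tpm1, Tln1, Ezr and Rdx) lost the call in at least 1, and 0 members changed direction with a call. The count of lower genes was 27 with the replicate block, 25 with array weights and 26 without both arrays numbered 3. It was 17 with the dimmest 50% of rows left out, 16 at an adjusted p under 0.01, and 16 to 23 when each array was left out in turn. That filter of dim rows removed Acta2, Cnn1, Myl9, Mylk and Cavin2, and the lower genes still tested kept their call. The count of higher genes was 2 with the replicate block, 0 at an adjusted p under 0.01 and 0 to 1 when each array was left out. The replicate block added 5 lower members and removed 0 calls. Of the 20 genes that did not pass, 13 passed in no alternative. Leaving out an array also leaves fewer samples, and causes other than that were not tested. With 3 arrays per group, small differences such as that of Actb cannot be told from 0. No detection calls were used here, so whether a dim row stood above background is not known.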

Other observations

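Genes of other filament systems were called in both directions. Among tubulins, keratins and other filament genes 3 of 14 were lower and 1 higher, against 9.05% and 9.55% of all rows. Lamin A/C (Lmna) fell to 8.87, 8.85 and 9.18 in CsA, against 9.72, 9.65 and 9.70 in DMSO (-0.72 ± 0.12, limma adjusted p = 0.00375). The tubulin gene Tubb2a (-0.83, adjusted p = 0.00565) and Krt18, a keratin of hepatocytes (-0.41, adjusted p = 0.0299), fell too. Map1b, a microtubule-binding protein known mainly from neurons, rose to 7.47, 6.99 and 6.98 in CsA, against 6.38, 5.81 and 5.79 in DMSO (1.15 ± 0.19, adjusted p = 0.00429). Paired by replicate number (replicate block), 6 were called lower and 2 higher, against 12.9% and 15.8% of all rows. Leaving out DMSO replicate 3 also gave 2 higher.

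Both arrays numbered 3 were the lowest of their group for Msn and also for vimentin (Vim), an intermediate filament gene of mesenchymal cells. Vim was 10.83, 11.24 and 9.48 in CsA and 11.47, 11.49 and 10.04 in DMSO. Its difference of -0.48 ± 0.50 did not pass (adjusted p = 0.596), but passed with the replicate block (adjusted p = 0.0149). Tpm4 and Ankrd1 had their lowest value in each group on the same 2 arrays. The same held for Acta1, Cnn1, Flna, Myh9 and Vcl, but not for Akap12 or Pdlim1. These examples were chosen after their values were seen. How often the pattern occurs among these genes or among all rows was not counted.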
